A study of Mus musculus with 6 samples.

Results

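The genes described here encode the collagen chains, the fibulins and a group of matrix proteins typical of fibroblasts, followed through the retinas of mice at postnatal day 7 (P7). They were taken by name from the deposited expression table: every symbol made of Col, a number, a and a number, plus *Fbln1*, *Fbln2*, *Fbln5*, *Fbln7*, *Fmod*, *Dcn*, *Lum*, *Ogn*, *Postn*, *Mgp*, *Fap* and *Bgn*. The table of 21744 genes held 56 of them, 44 collagen chains and 12 others. Of these, 53 (43 chains and 10 others) averaged 0.1 FPKM or more over the libraries and were compared between the groups, among 15200 genes tested in all. FPKM counts the sequenced fragments of a gene per length of transcript and per mapped fragment of the library, so levels can be set side by side between genes.

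In all, 3 control and 3 *Lhx4* null retina libraries were compared, each from the retinas of 1 mouse with the retinal pigment epithelium dissected away. All mice were on a C57BL/6J; 129S6 mixed background. In the study, null mice are *Lhx4* tdT/loxP; *Six3-Cre*, which carry a tdTomato knock-in allele and a loxP allele that Cre under the *Six3* promoter deletes in the retina, so cells outside the *Six3* lineage, such as those of blood vessels, keep the loxP allele intact. Controls were wild type or *Lhx4* loxP/+ in the electroretinograms of the study and *Lhx4* tdT/+ or loxP/tdT in its lineage tracing. The labels of these libraries say only control, so the genotype of each control mouse sequenced was not given in the sources used here. The study used animals of both sexes. The question of the comparison was which genes change in the retina when *Lhx4*, a LIM-homeodomain transcription factor of bipolar cells, is lost.

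Collagens are secreted proteins whose chains wind into helical trimers, and the chains that pair define the collagen type. Fibrillar types build the strong fibres of connective tissue and the fine fibres of the vitreous. Fibril-associated types decorate these fibres, type IV forms the network of basement membranes such as the inner limiting membrane and the sheaths of vessels, and other types form short-chain networks, beaded filaments or membrane-bound proteins. Fibulins link elastic fibres and basement membranes, and small leucine-rich proteoglycans coat collagen fibres. The retina itself holds little fibrous collagen, and the fibroblasts of the sclera, choroid and vessel walls make most of the type I and type III collagen around it.

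*Lhx4* did not show the direction of its label. Control replicates 1, 2 and 3 gave 20.9, 23.8 and 19.1 FPKM, and the null replicates gave 31.2, 30.3 and 29.0 FPKM. The log2 fold change, null minus control throughout, was 0.51 (standard error 0.091), with an adjusted p of 0.098 from limma after the Benjamini-Hochberg correction over all genes tested. The groups are therefore named by their labels, and each direction below holds for the libraries labelled *Lhx4* null. Retinal identity was plain in both groups: *Pax6*, a transcription factor of retinal progenitors and amacrine cells, measured 208, 207 and 206 FPKM across the controls, against 237, 243 and 233 FPKM across the libraries labelled *Lhx4* null. The control libraries had 76.9% to 100% of the depth of the deepest library and the libraries labelled *Lhx4* null 46.7% to 65.9%, as read from the steps of the lowest FPKM values. Depth and group cannot be told apart, and whole retinas were sequenced, so fewer cells of a type and less RNA per cell cannot be told apart either.

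Most of these genes were expressed at low levels. Their median level was 1.88 FPKM, against 8.72 FPKM over all genes tested. In level, 7 genes stood at 10 FPKM or more, 24 between 1 and 10 FPKM and 22 between 0.1 and 1 FPKM. The spread within a group followed the level. The median coefficient of variation between control libraries was 9.30% for genes of at least 1 FPKM and 24.0% for those below, and between the libraries labelled *Lhx4* null 8.56% and 27.8%. At the 0.1 FPKM threshold, the genes just inside were *Col1a1* (mean 0.134 FPKM), *Col10a1* (0.124 FPKM) and *Col6a6* (0.124 FPKM), and those just outside were *Col19a1* (0.0913 FPKM), *Dcn* (0.0729 FPKM) and *Lum* (0.00696 FPKM).

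**Figure D1:**
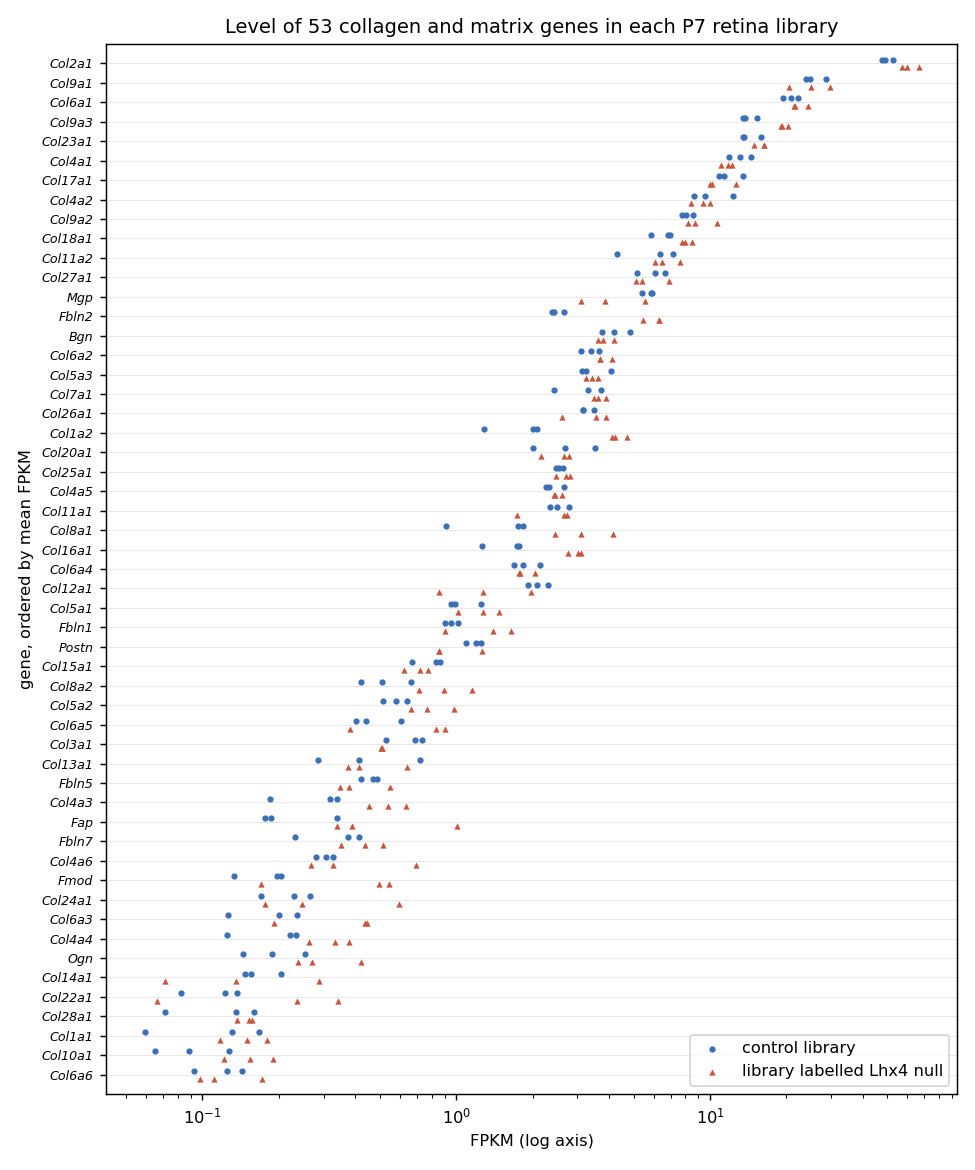
Level of the 53 genes in each library, in FPKM on a log axis, ordered by mean, with control libraries as circles and libraries labelled *Lhx4* null as triangles. *Col2a1* stands highest, between 47.6 and 66.5 FPKM, and the type I chain *Col1a1* lies near the bottom. The libraries labelled *Lhx4* null lie above the controls without overlap in 13 genes (24.5%, against 8.1% of all genes), among them *Fbln2* and *Col1a2*. They lie below in 1 gene (1.89%, against 6.13%).

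Among the 53 genes, 36 had higher and 17 lower mean log2 values in the libraries labelled *Lhx4* null. The median log2 fold change was 0.19, against 0.01 over all genes tested. *Fbln2* and *Col1a2* passed an adjusted p of 0.05 from limma, so 2 of 53 rose and none fell, against 0.224% of all genes in either direction. At an unadjusted p under 0.05, 10 genes (18.9%) were higher, against a background of 4.6%, and 2 genes (3.77%) were lower, against 3.55%. In 13 genes (24.5%) all 3 libraries labelled *Lhx4* null lay above all 3 control libraries, against 8.1% of all genes, and in 1 gene (1.89%) they lay below, against 6.13%. Of the 53 genes, 5 (*Col1a2*, *Col8a1*, *Fbln2*, *Fmod* and *Fap*) are among those the study picked as higher in these same libraries, so their direction is not independent evidence. Without these 5, the median was 0.16 over 48 genes, with 6 higher (12.5%) and 2 lower (4.17%) at an unadjusted p under 0.05. The median was 0.05 over the 31 genes of at least 1 FPKM and 0.37 over the 22 genes below 1 FPKM.

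Control replicate 3 weighed on the count of higher genes. It gave the lowest value of the 6 libraries in 21 of the 53 genes and the highest in 0, while over all genes it gave the lowest in 15.2% and the highest in 13.4%. Without control replicate 3, 6 genes in place of 10 were higher at an unadjusted p under 0.05: *Col16a1*, *Col1a2*, *Col2a1*, *Col8a1*, *Col9a3* and *Fbln2*. Over all genes, 2.53% were higher in that fit. Summed over the 53 genes, the level was 225 to 258 FPKM in control libraries and 269 to 274 FPKM in libraries labelled *Lhx4* null, of which the collagen chains made up 209 to 242 FPKM and 249 to 256 FPKM.

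**Figure D2:**
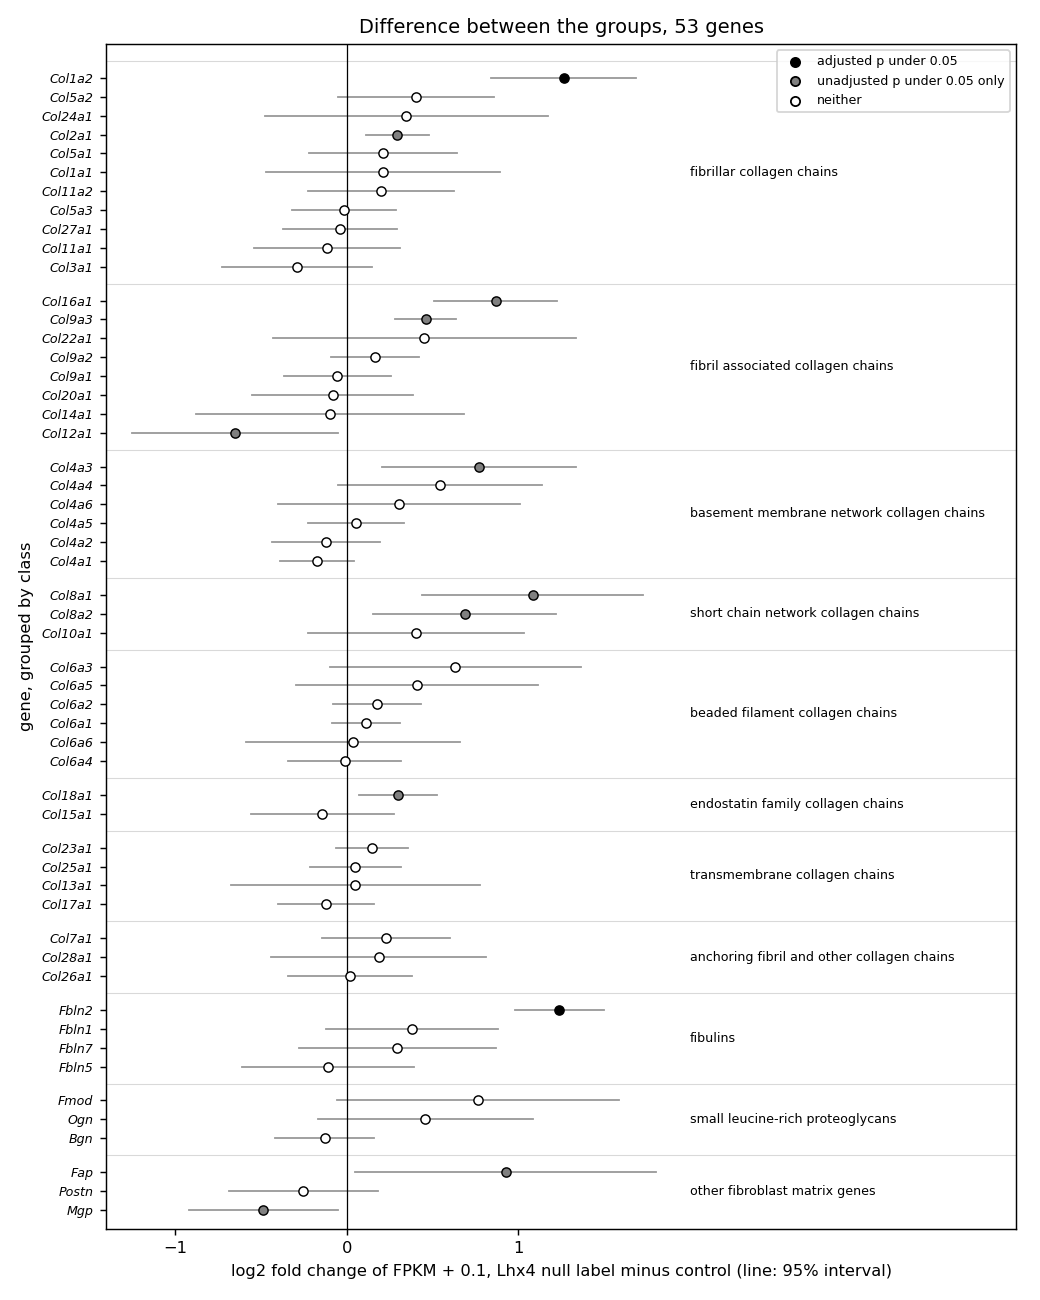
Log2 fold change of FPKM + 0.1 for the 53 genes by class, libraries labelled *Lhx4* null minus control, with 95% intervals from limma. *Fbln2* and *Col1a2* (black) lie at 1.24 and 1.26 and pass the adjusted test, 10 further genes (grey) pass an unadjusted p of 0.05 only, and the intervals of the other 41 cross 0.

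Among the fibulins, *Fbln2*, which encodes a secreted glycoprotein of elastic fibres and basement membranes, rose. *Fbln2* (ENSMUSG00000064080, chromosome 6 of GRCm38, 91212455 to 91272540) measured 2.65, 2.43 and 2.38 FPKM across the controls, against 6.31, 6.32 and 5.42 FPKM across the libraries labelled *Lhx4* null. All 3 libraries labelled *Lhx4* null stood above all 3 control libraries, and the gap between the groups was wider than the spread within either. The log2 fold change was 1.24 (standard error 0.11, 2.36-fold on the log2(FPKM + 0.1) scale, adjusted p = 0.0044 from limma). *Fbln2* passed an adjusted p of 0.05 in each of 14 alternative settings, with a log2 fold change between 1.01 and 1.31. The other fibulins did not pass. *Fbln1*, a relative found in vessel and basement membrane matrix, differed between the groups by 0.38 on the log2 scale (adjusted p = 0.69 from limma), *Fbln7* by 0.29 and *Fbln5*, needed for elastic fibre assembly, by -0.11.

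The fibrillar chains, 11 genes, comprised 7 with a higher and 4 with a lower mean, at a median log2 fold change of 0.21. *Col1a2*, the second chain of type I collagen, rose. *Col1a2* (ENSMUSG00000029661, chromosome 6, 4504814 to 4541544) measured 2.00, 2.07 and 1.29 FPKM across the controls, against 4.12, 4.24 and 4.72 FPKM across the libraries labelled *Lhx4* null. The groups did not overlap, and control replicate 3 lay below the other controls. The log2 fold change was 1.26 (standard error 0.18, 2.40-fold on the log2(FPKM + 0.1) scale, adjusted p = 0.049 from limma), just under the threshold. It stayed higher at an unadjusted p under 0.05 in all 14 alternative settings, with a log2 fold change of 0.95 to 1.38, but passed an adjusted p of 0.05 in 2 of them, and the highest adjusted p was 0.21 from limma, without *Lhx4* null replicate 2.

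*Col1a1* encodes the partner chain, which makes up most of type I collagen in connective tissue. *Col1a1* measured 0.131, 0.167 and 0.0593 FPKM across the controls, against 0.117, 0.150 and 0.180 FPKM across the libraries labelled *Lhx4* null (log2 fold change 0.21, adjusted p = 0.89 from limma). Its groups overlapped, and it lay far below *Col1a2* in every library. The ratio of *Col1a2* to *Col1a1* in FPKM was 16.5 ± 4.8 (mean ± SD, n = 3) in control libraries and 29.9 ± 4.7 (n = 3) in libraries labelled *Lhx4* null. The divisor, *Col1a1*, lay near the 0.1 FPKM threshold, so this ratio is imprecise. The exact two-sided permutation test on it gave p = 0.1, the lowest that 3 libraries against 3 allow. *Col3a1*, the fibrillar chain of skin and vessel walls that usually accompanies type I, was at 0.734, 0.527 and 0.689 FPKM against 0.511, 0.507 and 0.511 FPKM. It was the one gene of the 53 with every library labelled *Lhx4* null below every control library, by a narrow margin (log2 fold change -0.29, adjusted p = 0.72 from limma). *Col1a1* and *Col3a1* were chosen for this description after their values were seen.

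*Col2a1*, the chain of type II collagen in vitreous and cartilage, had the highest level of all. *Col2a1* measured 52.5, 48.8 and 47.6 FPKM across the controls, against 57.1, 66.5 and 59.6 FPKM across the libraries labelled *Lhx4* null. The groups did not overlap, and the difference was small (log2 fold change 0.30, standard error 0.080, adjusted p = 0.38 from limma). Markers of cartilage and sclera were low. The 9 in the table summed to 0.537 to 0.679 FPKM in control libraries and 0.566 to 0.918 FPKM in libraries labelled *Lhx4* null. Of these, *Comp*, *Prg4* and *Hapln1* passed the filter, 2 higher and 1 lower in mean, and none passed an unadjusted p of 0.05. *Acan*, the aggrecan core protein, was at most 0.0571 FPKM and *Matn1*, a cartilage matrilin, was listed at 0 in all 6 libraries. The type XI chains, which co-assemble with type II, overlapped between the groups. *Col11a1* was at 2.34, 2.78 and 2.49 FPKM against 2.74, 1.73 and 2.65 FPKM (log2 fold change -0.11), and *Col11a2* was at 7.15, 6.36 and 4.30 FPKM against 6.09, 6.44 and 7.59 FPKM (0.20). The type V chains and *Col24a1* and *Col27a1* completed the class, and none of the 5 passed an unadjusted p of 0.05.

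The fibril-associated chains, 8 genes tested, were split between 4 higher and 4 lower, with a median log2 fold change of 0.06. *Col9a3*, a chain of type IX collagen, which sits on the surface of type II fibrils, measured 13.8, 15.4 and 13.5 FPKM across the controls, against 20.3, 19.3 and 19.1 FPKM across the libraries labelled *Lhx4* null. No library of one group reached the other (log2 fold change 0.46, standard error 0.078, adjusted p = 0.088 from limma). *Col9a1* was at 24.7, 28.8 and 23.9 FPKM against 29.6, 20.4 and 25.0 FPKM (log2 fold change -0.05), and *Col9a2* was at 7.75, 8.53 and 8.06 FPKM against 8.18, 10.6 and 8.71 FPKM (0.17). Both of these overlapped between the groups, although the products of the type IX genes join in one trimer. The ratio of *Col9a3* to *Col9a1* was 0.552 ± 0.017 (mean ± SD, n = 3) in control libraries and 0.797 ± 0.133 (n = 3) in libraries labelled *Lhx4* null. The ratios did not overlap, but with 3 libraries against 3 the exact two-sided permutation test cannot go below p = 0.1.

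*Col16a1* encodes a fibril-associated chain found in several tissues. *Col16a1* measured 1.74, 1.27 and 1.76 FPKM across the controls, against 2.75, 3.10 and 3.02 FPKM across the libraries labelled *Lhx4* null, without overlap (log2 fold change 0.87, standard error 0.16, adjusted p = 0.10 from limma). *Col12a1*, which links fibrils in dense connective tissue, had lower mean values in the libraries labelled *Lhx4* null. *Col12a1* was at 1.91, 2.30 and 2.08 FPKM against 1.97, 0.857 and 1.28 FPKM. *Lhx4* null replicate 1 lay within the control range, so the groups overlapped (log2 fold change -0.65, adjusted p = 0.60 from limma), and without *Lhx4* null replicate 2 the log2 fold change was -0.38.

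Short-chain network collagens form hexagonal lattices, as in the basement membrane of the corneal endothelium. All 3 genes were higher in mean, with a median log2 fold change of 0.69. *Col8a1* measured 1.84, 1.75 and 0.915 FPKM across the controls, against 2.46, 3.10 and 4.15 FPKM across the libraries labelled *Lhx4* null (log2 fold change 1.08, standard error 0.28, adjusted p = 0.35 from limma). *Col8a2*, its partner chain, was at 0.666, 0.508 and 0.423 FPKM against 0.715, 0.899 and 1.15 FPKM (log2 fold change 0.69, adjusted p = 0.52 from limma). In both chains control replicate 3 was the lowest library, *Lhx4* null replicate 3 the highest, and the groups did not overlap. Without control replicate 3 the log2 fold changes were 0.78 and 0.56, the latter with an unadjusted p of 0.066. *Col10a1*, the chain of hypertrophic cartilage, was near the 0.1 FPKM threshold in every library. It averaged 0.0935 FPKM in control libraries and 0.155 FPKM in libraries labelled *Lhx4* null. *Col10a1* thus passed the filter only through the libraries labelled *Lhx4* null, and its direction is not independent of the filter wherever it is counted.

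Among the basement membrane network chains, 6 genes, the major and minor chains differed in level. *Col4a1* and *Col4a2*, which form the common type IV network of vessels and retinal membranes, measured 13.2, 14.5 and 11.9 FPKM and 9.60, 12.3 and 8.61 FPKM across the controls. Across the libraries labelled *Lhx4* null they measured 12.2, 11.0 and 11.8 FPKM and 10.02, 8.40 and 9.35 FPKM (log2 fold changes -0.17 and -0.12). Their groups overlapped, and the ratio of *Col4a1* to *Col4a2* was 1.31 ± 0.11 in control libraries and 1.26 ± 0.05 in the others (mean ± SD, n = 3 each). *Col4a3*, a chain of the network of specialised basement membranes such as that of the kidney glomerulus, was at 0.318, 0.338 and 0.185 FPKM against 0.538, 0.452 and 0.636 FPKM (log2 fold change 0.77, adjusted p = 0.49 from limma). *Col4a4*, which shares that trimer, was at 0.233, 0.222 and 0.125 FPKM against 0.263, 0.331 and 0.378 FPKM (log2 fold change 0.55, adjusted p = 0.64 from limma). Both lay higher without overlap. *Col4a5*, the third chain of that trimer, was at 2.33, 2.65 and 2.25 FPKM against 2.62, 2.46 and 2.43 FPKM (log2 fold change 0.05), and its groups overlapped.

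*Col18a1* encodes a basement membrane collagen whose end fragment is endostatin. *Col18a1* measured 6.94, 6.81 and 5.85 FPKM across the controls, against 7.72, 8.46 and 7.97 FPKM across the libraries labelled *Lhx4* null, without overlap (log2 fold change 0.30, standard error 0.099, adjusted p = 0.51 from limma). Without control replicate 3 its log2 fold change was 0.22 and its unadjusted p 0.074. *Col15a1*, its relative, overlapped between the groups (log2 fold change -0.14).

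The beaded filament chains of type VI collagen surround cells in most connective tissues. Of 6 genes, 5 were higher in mean and none passed an unadjusted p of 0.05, with a median log2 fold change of 0.14. *Col6a1* was at 19.3, 22.2 and 20.8 FPKM against 21.4, 24.4 and 21.6 FPKM (log2 fold change 0.11), *Col6a2* was at 3.39, 3.64 and 3.11 FPKM against 3.70, 3.70 and 4.09 FPKM (0.18), and *Col6a4* was at 1.83, 2.13 and 1.70 FPKM against 1.77, 2.04 and 1.79 FPKM (-0.01). Of these 3, *Col6a2* alone had groups that did not overlap, narrowly.

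The transmembrane collagens are anchored in the cell surface. *Col23a1* was at 13.5, 15.9 and 13.6 FPKM against 16.3, 16.4 and 14.9 FPKM (log2 fold change 0.15), and *Col17a1*, a component of hemidesmosomes, was at 11.3, 13.5 and 10.9 FPKM against 10.2, 12.7 and 10.01 FPKM (-0.12). Both were among the 7 highest genes and both overlapped between the groups. None of the 4 transmembrane chains passed an unadjusted p of 0.05, and their log2 fold changes ran from -0.12 to 0.15. The remaining chains, *Col7a1* of anchoring fibrils, *Col26a1* and *Col28a1*, ran from 0.02 to 0.23 and did not pass either.

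Of the small leucine-rich proteoglycans, which bind collagen fibrils, 3 were tested and none passed an unadjusted p of 0.05. *Fmod*, fibromodulin, was at 0.205, 0.197 and 0.133 FPKM against 0.496, 0.170 and 0.542 FPKM, with *Lhx4* null replicate 2 inside the control range (log2 fold change 0.76, adjusted p = 0.64 from limma). *Ogn*, osteoglycin, had a log2 fold change of 0.46 and *Bgn*, biglycan, of -0.13. *Dcn*, decorin, an abundant product of fibroblasts, did not reach the mean of 0.1 FPKM needed for the test. It measured 0.0169, 0.0211 and 0.0323 FPKM across the controls, against 0.139, 0.113 and 0.116 FPKM across the libraries labelled *Lhx4* null. Every library labelled *Lhx4* null lay above every control library. In the fit without a filter, its log2 fold change was 0.85 with an unadjusted p of 2.96e-04 and an adjusted p of 0.11 from limma. *Lum*, lumican, the keratan sulfate proteoglycan of cornea and sclera, was listed at 0 in 5 libraries and at 0.0418 FPKM in *Lhx4* null replicate 3.

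Of the other fibroblast matrix genes, *Mgp*, matrix Gla protein, an inhibitor of calcification made by vascular smooth muscle and cartilage, measured 5.89, 5.39 and 5.83 FPKM across the controls. Across the libraries labelled *Lhx4* null it measured 3.84, 3.11 and 5.52 FPKM, and replicate 3 lay within the control range (log2 fold change -0.48, adjusted p = 0.59 from limma). Without *Lhx4* null replicate 3 its log2 fold change was -0.71, and without *Lhx4* null replicate 2 it was -0.30. *Fap*, a cell surface protease of activated fibroblasts, was at 0.177, 0.339 and 0.186 FPKM against 1.01, 0.388 and 0.340 FPKM. The groups barely cleared each other, and *Lhx4* null replicate 1 stood alone at the top (log2 fold change 0.93, adjusted p = 0.60 from limma). Without *Lhx4* null replicate 1 the log2 fold change of *Fap* was 0.51. *Postn*, periostin, had a log2 fold change of -0.25.

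**Figure D3:**
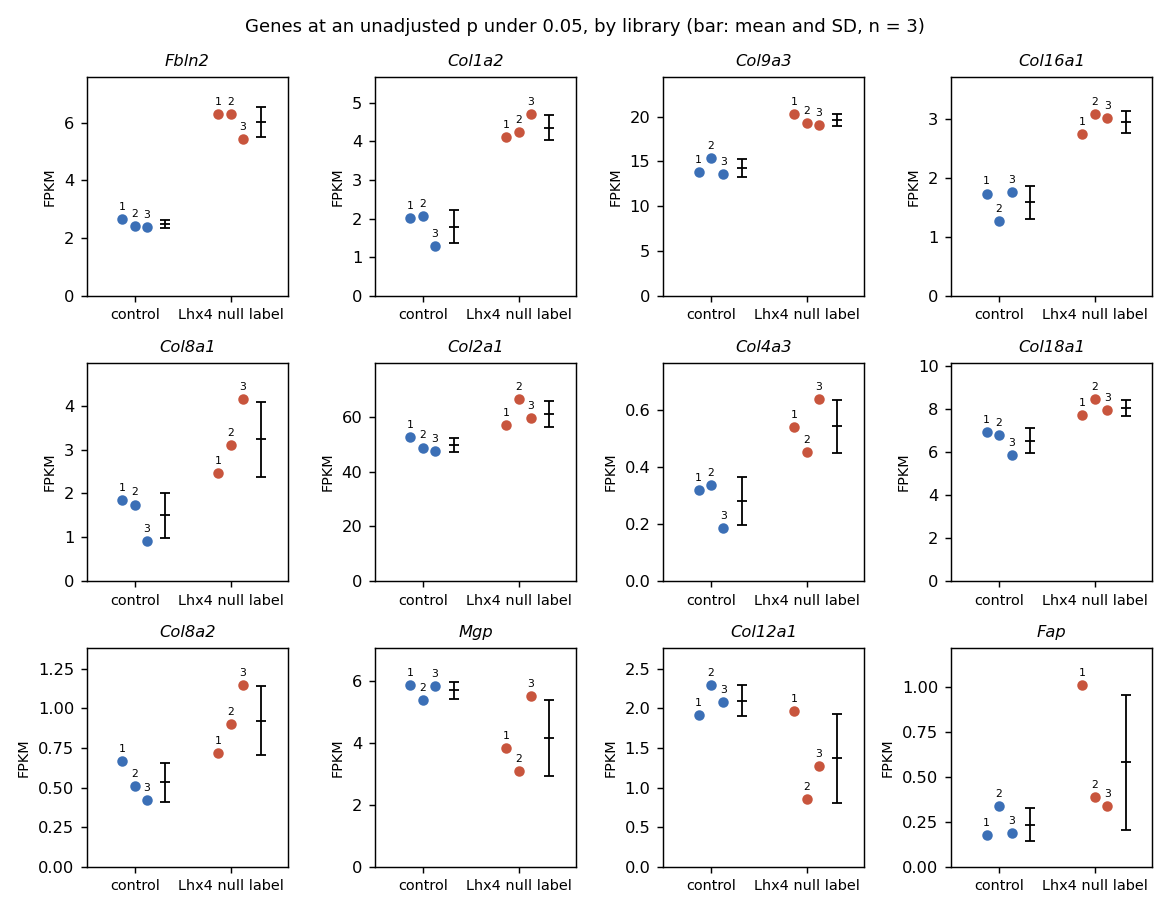
FPKM in each library (numbered by replicate) of the 12 genes at an unadjusted p under 0.05, with the group mean and SD beside the points (n = 3 each) and axes that start at 0. *Fbln2*, *Col1a2*, *Col9a3* and *Col16a1* keep the groups well apart, *Col8a1* and *Col8a2* have control replicate 3 lowest and *Lhx4* null replicate 3 highest, and *Mgp* and *Col12a1* overlap.

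The bases just before the start of *Col16a1* and the type VIII chains are shown because these genes had higher values without overlap in the libraries labelled *Lhx4* null. RefSeq windows of 250 bases before the start were found for 43 of the 56 genes. The windows, on GRCm38.p6 and shortened by 1 base for *Col8a2* where an annotated exon began, are chr4:130047590-130047839 on the plus strand for *Col16a1*, chr16:57754738-57754987 on the minus strand for *Col8a1* and chr4:126286544-126286792 on the plus strand for *Col8a2*. Capitals mark matches, on either strand, to the GC box GGGCGG or to CCAAT, and sequences run 5′ to 3′ along the gene.
Col16a1: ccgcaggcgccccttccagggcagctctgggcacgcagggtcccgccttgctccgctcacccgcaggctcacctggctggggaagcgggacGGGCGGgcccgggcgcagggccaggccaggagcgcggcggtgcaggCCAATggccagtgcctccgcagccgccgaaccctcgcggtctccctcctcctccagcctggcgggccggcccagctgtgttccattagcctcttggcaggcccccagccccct
Col8a1: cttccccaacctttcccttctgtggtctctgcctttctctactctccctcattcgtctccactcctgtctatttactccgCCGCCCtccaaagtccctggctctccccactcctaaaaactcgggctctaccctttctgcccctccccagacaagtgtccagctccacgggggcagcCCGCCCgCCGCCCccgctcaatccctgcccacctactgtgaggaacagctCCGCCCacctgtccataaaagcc
Col8a2: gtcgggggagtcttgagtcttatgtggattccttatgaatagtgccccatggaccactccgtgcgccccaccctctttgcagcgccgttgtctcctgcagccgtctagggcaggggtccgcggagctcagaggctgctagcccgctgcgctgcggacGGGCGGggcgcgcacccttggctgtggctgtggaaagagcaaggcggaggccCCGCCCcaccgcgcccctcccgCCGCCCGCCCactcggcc

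The GC box occurred 1 time before *Col16a1* and 4 times before each type VIII gene, where it began 170, 73, 66 and 23 bases before the start of *Col8a1* and 93, 41, 19 and 15 bases before that of *Col8a2* (the last pair of matches overlap). CCAAT occurred 1 time, 113 bases before *Col16a1*. The homeodomain core TAATTA and the TATA box TATAAA were also searched on both strands and had 0 matches in these 3 windows. Over the 49 full windows of these genes, GGGCGG was found in 53.1%, CCAAT in 30.6%, TATAAA in 14.3% and TAATTA in 6.12%, and over all 32851 mouse windows of that length in 32.7%, 33.8%, 12.4% and 4.84%. Apart from the type VIII genes, no window of these genes held the GC box more than 3 times. Those of *Fbln2* and *Col1a2* held it 1 and 2 times. The windows with TAATTA belonged to *Col10a1*, *Col11a2* and *Fbln5*, none of which passed an unadjusted p of 0.05.

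Several chains are neighbours in the genome. In GENCODE vM21 on GRCm38, 9 adjacent pairs of the 56 genes lay within 200000 bases. *Col4a4* and *Col4a3* are transcribed away from each other on chromosome 1 with 71 bases between them, and both had higher values without overlap (log2 fold changes 0.55 and 0.77). *Col4a1* and *Col4a2* lie head to head on chromosome 8 with starts that overlap by 22 bases, and both overlapped between the groups. *Col4a6* and *Col4a5* are divergent on chromosome X with 1308 bases between them, with log2 fold changes of 0.30 and 0.05. *Col3a1* and *Col5a2*, convergent on chromosome 1 and 24614 bases apart, differed in direction, with log2 fold changes of -0.29 and 0.41, neither past an unadjusted p of 0.05. *Dcn* and *Lum*, 46984 bases apart on chromosome 10, were both under the filter. None of the 56 genes shared more than 10% of its exon bases with another gene.

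The type VIII chains, *Col4a3* and *Col4a4* were lowest in control replicate 3 and highest in *Lhx4* null replicate 3, as were 6 of 12 markers of pigment cells and the pigment epithelium: *Dct*, *Pmel*, *Rpe65*, *Ttr*, *Tyr* and *Tyrp1*. Of the 12 markers, 11 were higher in mean, 6 (50%, against 4.6% of all genes) were higher at an unadjusted p under 0.05 and none passed an adjusted p of 0.05 from limma, with a median log2 fold change of 0.65. Their summed level was 29.4 to 53.4 FPKM in control libraries and 55.3 to 93.0 FPKM in libraries labelled *Lhx4* null. *Pmel*, a protein of pigment granules, was at 7.33, 7.51 and 3.95 FPKM against 8.98, 12.7 and 16.2 FPKM (log2 fold change 1.02), with control replicate 3 lowest and *Lhx4* null replicate 3 highest. *Oca2* and *Mlana*, both of melanosomes, did not follow that order and had log2 fold changes of 1.12 and 1.50, and the study lists both as higher in these same libraries. None of the 12 was listed at 0 in all libraries. *Rpe65*, the visual cycle isomerase that defines the pigment epithelium, was at 0.975, 0.727 and 0.457 FPKM against 0.465, 0.862 and 1.61 FPKM and overlapped between the groups. Of the 53 genes, 9 (17.0%) had their lowest value in control replicate 3 and their highest in *Lhx4* null replicate 3, as did 2.07% of all genes: *Col1a1*, *Col1a2*, *Col4a3*, *Col4a4*, *Col6a2*, *Col8a1*, *Col8a2*, *Col11a2* and *Fmod*. The part of pigment tissue in these values was not tested. *Fbln2* did not share this order, since its lowest library among those labelled *Lhx4* null was replicate 3.

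**Figure D4:**
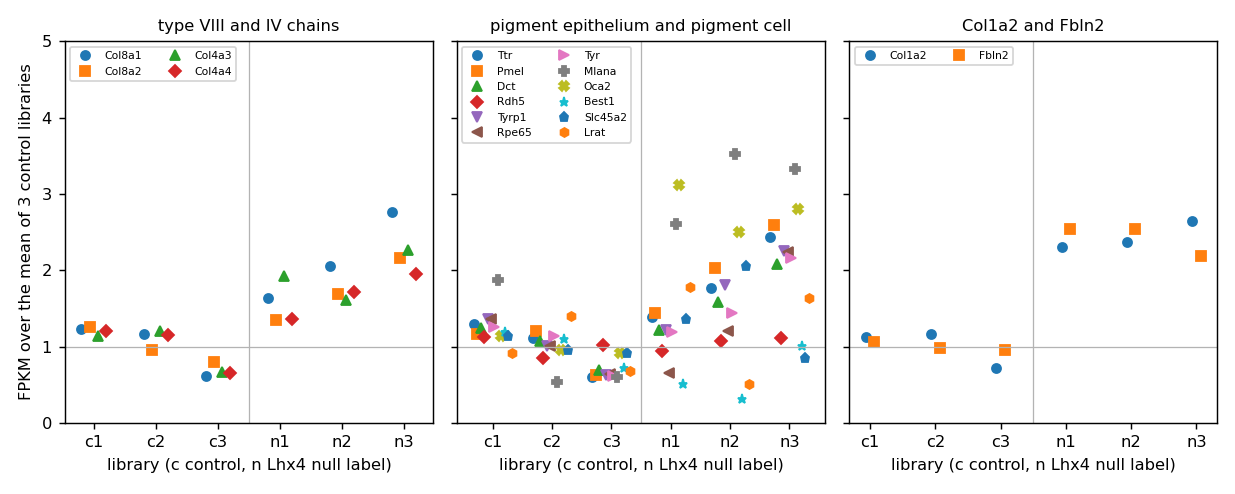
FPKM of each library divided by the mean of the 3 control libraries, for type VIII and IV chains (left), the 12 pigment markers (middle) and *Col1a2* and *Fbln2* (right), with control libraries c1 to c3 and libraries labelled *Lhx4* null n1 to n3. In the left panel control replicate 3 lies between 0.609 and 0.794 and *Lhx4* null replicate 3 between 1.96 and 2.76, in the middle panel 6 of 12 markers have the same lowest and highest library, and on the right *Fbln2* lies between 2.18 and 2.54 in all libraries labelled *Lhx4* null.

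Other cell types that make matrix were read from marker lists. Of 12 fibroblast and mesenchyme markers in the table, 7 passed the filter and none passed an unadjusted p of 0.05. Their summed level was 51.2 to 57.4 FPKM in control libraries and 52.0 to 60.3 FPKM in libraries labelled *Lhx4* null. Most of that sum came from *Thy1* and *Pdgfra*, which retinal neurons and astrocytes also express. *Tcf21*, a mesenchymal transcription factor, was listed at 0 in all 6 libraries, and *Twist1*, *Twist2*, *Tbx18* and *Osr1* were under the filter. The 9 pericyte markers summed to 21.5 to 27.6 FPKM against 17.7 to 26.3 FPKM, with none past an unadjusted p of 0.05. In mean, 8 of these 9 were lower and 1 was higher (median log2 fold change -0.15). The 10 endothelial markers summed to 67.2 to 81.5 FPKM against 72.8 to 81.8 FPKM. The largest part of that sum was *Kdr*, a VEGF receptor, at 35.9, 44.4 and 35.5 FPKM against 50.3, 51.4 and 42.8 FPKM. The sum therefore hid the direction of most endothelial markers, since 8 of the 10 were lower in mean and 2 higher (median log2 fold change -0.19). At an unadjusted p under 0.05, *Kdr* was higher (10%, against 4.6% of all genes), with a log2 fold change of 0.32. *Esam*, *Emcn* and *Pecam1* (30%, against 3.55% of all genes) were lower at that threshold, with log2 fold changes of -0.67, -0.61 and -0.45. In the cornea list *Krt5*, *Krt14* and *Kera* were listed at 0 in all libraries and *Aldh3a1* was under the filter. *Krt12*, at 0.0473 to 0.268 FPKM over the libraries, was tested and did not pass an unadjusted p of 0.05. Lens markers summed to 7.48 to 24.3 FPKM against 8.35 to 15.9 FPKM. Of the 6 Müller glia markers, *Dkk3* and *Vim* (33.3%, against 4.6% of all genes) were higher at an unadjusted p under 0.05. Their log2 fold changes were 0.24 and 0.25.

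Other genes of collagen biology were read from pathway lists. Of 29 genes of collagen modification and processing tested, none was higher and 2 (6.90%, against 3.55% of all genes) were lower at an unadjusted p under 0.05, with a median log2 fold change of 0.05. These were the prolyl hydroxylase *P3h2*, at 3.85, 3.44 and 2.81 FPKM against 2.09, 2.18 and 1.95 FPKM (log2 fold change -0.66, adjusted p = 0.20 from limma), and *P4ha1*, a catalytic subunit of another prolyl hydroxylase (log2 fold change -0.34). Both lay lower without overlap. Of 9 collagenases and their inhibitors, *Mmp2*, a gelatinase that cuts type IV collagen, measured 5.46, 6.24 and 5.71 FPKM across the controls, against 2.72, 3.68 and 2.72 FPKM across the libraries labelled *Lhx4* null. Its groups did not overlap (log2 fold change -0.92, standard error 0.14, adjusted p = 0.059 from limma), and over 14 alternative settings its adjusted p ran from 0.037 to 0.23.

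Of 22 genes of the elastic fibre and fibronectin matrix, 19 were higher in mean, and 6 (27.3%, against 4.6% of all genes) were higher and none lower at an unadjusted p under 0.05, with a median log2 fold change of 0.28. *Fn1*, fibronectin, on which collagen fibrils assemble, measured 16.9, 24.2 and 18.7 FPKM across the controls, against 55.5, 37.8 and 40.7 FPKM across the libraries labelled *Lhx4* null. The groups did not overlap (log2 fold change 1.16, standard error 0.17, adjusted p = 0.053 from limma), and over 14 alternative settings its adjusted p ran from 0.046 to 0.21. The study lists *Fn1*, too, as higher in these libraries. *Mfap2*, a microfibril glycoprotein, and *Ltbp3*, which holds latent TGF-beta in the matrix, had log2 fold changes of 0.39 and 0.27. Of 14 laminins and other basement membrane genes, *Lamb2*, a laminin chain, was at 3.69, 4.81 and 4.59 FPKM against 6.16, 7.28 and 5.61 FPKM (log2 fold change 0.53, adjusted p = 0.37 from limma). It alone of that list passed an unadjusted p of 0.05 (7.14% higher, against 4.6% of all genes). Of 7 collagen receptors, *Ddr1*, a receptor kinase, passed an unadjusted p of 0.05 (14.3% higher, against 4.6% of all genes, log2 fold change 0.21). None of 6 TGF-beta ligands and receptors did, and their log2 fold changes ran from 0.01 to 0.19.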

How the data were processed

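Retinal RNA of 6 mice was sequenced as TruSeq libraries with paired-end reads. Per the labels and the study's methods, the authors mapped reads with TopHat2 to GRCm38 and quantified genes with Cufflinks. The authors deposited FPKM, which are already scaled for length and depth. Program versions, annotation and strand use were not given in the sources used here. Groups and replicate numbers came from the labels. The number of per-sample columns left unused was 0.

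Values were transformed to log2(FPKM + 0.1), and limma 3.58.1 in R 4.3.3 compared the groups (lmFit, eBayes with a mean-variance trend, two-sided) in the 15200 genes averaging 0.1 FPKM or more, with Benjamini-Hochberg adjustment over all of them. Because of the added 0.1, fold changes of low genes come out too small. P-values measure the spread between 3 mice per group. Relative depth was the most frequent ratio of values between the deepest library and each other library. It was searched among 5708 genes under 0.1 FPKM in every library and rested on 35 to 125 genes per pair of libraries. Replicates correlated with r from 0.982 to 0.992 across genes. Positions came from GENCODE vM21, in which all 56 genes were found. Plots were drawn with Python 3.11.15 and matplotlib 3.10.9.

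Genes given with the value in every library were those at an unadjusted p under 0.05, the 10 of highest level and the trimer partners of at least 1 FPKM, and from each pathway or marker list at most 3 at an unadjusted p under 0.05. Any other gene was named with its values in view. The members and lists were chosen with earlier results of these data known.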

Additional observations from a re-analysis of the deposited data

How the results depend on the processing

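The comparison was repeated under 14 alternatives. The count of genes past an adjusted p of 0.05 was 1, *Fbln2* alone, with median of ratios scaling, with quantile normalization, with a pseudocount of 0.01 FPKM, without the filter, without the mean-variance trend, and in each of the 6 fits without 1 library (1 to 1). *Col1a2* passed only with a pseudocount of 1 FPKM and with a mean of at least 1 FPKM. The median log2 fold change of the genes was 0.054 with a mean of at least 1 FPKM, 0.11 with a pseudocount of 1 FPKM, and 0.11 to 0.26 without 1 library. The number higher at an unadjusted p under 0.05 was 6 to 13 without 1 library, the lowest without control replicate 3, and the number lower was 0 to 2, with 1 when no filter was used and 0 without the trend. No named gene that passed the adjusted test changed direction under these alternatives. The cause of these differences was not tested.

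Libraries with the same replicate number did not deviate together (correlations -0.13, -0.0002 and 0.16), so the number does not pair them. With the replicate number as a block, 1 gene passed an adjusted p of 0.05, and 9 were higher and 2 lower at an unadjusted p under 0.05. Genes under 1 FPKM rest on few fragments, most of all in the shallower libraries labelled *Lhx4* null, and differences among them may not be detectable at this depth.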
